A study of Mus musculus with 3 samples.

Results

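The genes described here are the inhibitors of cyclin-dependent kinases (CDKs) Cdkn2a, Cdkn2b, Cdkn2c, Cdkn2d, Cdkn1b and Cdkn1c, the retinoblastoma family Rb1, Rbl1 and Rbl2, and Trp53. They were chosen as targets and neighbours of the SV40 large T antigen, by a rule that uses no levels. The choice was made with earlier results of these data known. Every probe set that the platform annotation gives to one of them was read. That annotation gave 15 of the 45101 probe sets to 9 of the 10 genes, which are 9 of 18194 genes with a probe set of their own. It gave none to Trp53 as used here, so Trp53 has no value and was not analysed here. The cells were lymphatic endothelial cells of mouse skin, sorted by flow cytometry from ImmortoMice (H-2Kb-tsA58). These mice carry a temperature-sensitive T antigen under the interferon-inducible promoter of a class I histocompatibility gene. There is 1 group of 3 cultures, at passages 13, 14 and 18. All 3 were expanded at 33 °C with interferon-gamma at 1 unit per ml, then held for 3 days at 37 °C without it so that the T antigen would be degraded. No culture kept at 33 °C and no culture of unmodified cells was analysed here, so every value belongs to cells after the shift. Whether the cultures came from separate animals or isolations is not stated in the labels, and the spread between them may be technical.

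CDK inhibitors hold back the passage from G1 to S phase. The Ink4 proteins, made from the Cdkn2 genes, bind the kinases Cdk4 and Cdk6, and the Kip proteins, made from Cdkn1b and Cdkn1c, bind cyclin-kinase complexes more broadly. The kinases they restrain phosphorylate the retinoblastoma protein pRb and its relatives p107 and p130, which otherwise bind E2F transcription factors and repress genes of DNA replication and mitosis. Large T antigen binds these 3 proteins and p53 and takes them out of action. The second product of Cdkn2a, Arf, stabilises p53 by binding Mdm2.

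The promoter windows of Rbl1 and of the upstream start of Cdkn2a are shown because both hold a consensus word for E2F, and that of Rbl2 is shown beside them as one without it. The words searched on both strands were TTTCCCGC, TTTCGCGC, TTTGCCGC and TTTGGCGC, which differ in the fourth and the fifth letter; no other motif was searched. Each window runs from 250 bases before the annotated start to 50 after it, 5′ to 3′ on the gene's strand, from RefSeq on GRCm38.p6, and the capitals mark the word.
Rbl1, chr2:157204485-157204784, strand minus: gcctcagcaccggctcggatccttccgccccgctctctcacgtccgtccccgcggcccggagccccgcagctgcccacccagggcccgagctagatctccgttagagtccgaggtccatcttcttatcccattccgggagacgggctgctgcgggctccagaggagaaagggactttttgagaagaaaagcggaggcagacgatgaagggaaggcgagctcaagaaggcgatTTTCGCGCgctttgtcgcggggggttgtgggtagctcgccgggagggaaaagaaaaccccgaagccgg
Cdkn2a, upstream start, chr4:89294570-89294869, strand minus: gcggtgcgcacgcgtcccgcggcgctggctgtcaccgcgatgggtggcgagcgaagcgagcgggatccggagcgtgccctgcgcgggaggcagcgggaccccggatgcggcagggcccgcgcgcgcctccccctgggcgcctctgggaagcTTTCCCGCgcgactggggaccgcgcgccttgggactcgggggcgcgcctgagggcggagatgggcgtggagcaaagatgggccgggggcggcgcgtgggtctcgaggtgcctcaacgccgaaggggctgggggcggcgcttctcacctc
Rbl2, chr8:91069807-91070106, strand plus: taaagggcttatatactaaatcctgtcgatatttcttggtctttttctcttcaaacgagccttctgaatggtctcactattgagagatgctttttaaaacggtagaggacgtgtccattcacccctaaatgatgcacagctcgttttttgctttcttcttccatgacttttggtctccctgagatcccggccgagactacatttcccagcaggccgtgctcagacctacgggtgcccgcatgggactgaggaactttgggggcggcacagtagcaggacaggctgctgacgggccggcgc
The word begins 18 bases before the start in Rbl1 and 99 bases before it in Cdkn2a. The table held 10 windows for 8 of the 10 genes, and the word was found in 2 of the 10. It was found in 744 of all 32851 windows of the same length (2.26%). The Rbl1 and Cdkn2a windows are 64% and 77% G and C, against a median of 52.7% in all windows, and a match is no more than a run of letters. The second Cdkn2a window, at the downstream start from which p16Ink4a is made, and the windows of Cdkn2b, Cdkn2c, Cdkn2d, Cdkn1b, Rbl2 and Trp53 held none of the 4 words. Rb1 and Cdkn1c had no window.

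Of the 9 measured genes, 8 were detected, that is, lay above a floor on all 3 arrays (54.3% of all 18194 genes did). The floor was set on each array from 47 genes of other tissues, such as those of liver, retina and testis, as the 95th percentile of their levels. It lay at 32.05, 36.2 and 32.4 intensity units for passages 13, 14 and 18. Of the 15 probe sets, 12 were above it on all arrays, and 9 genes are followed below in the order of their roles. Values are signal intensities on a linear scale, means are log2 intensities ± SD (n = 3), and probe sets of different genes are not set against each other because each has its own brightness.

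Among the Ink4 genes, Cdkn2b (p15Ink4b, which blocks Cdk4 and Cdk6 and is known as a target of TGF-beta signalling) read 1370 at passage 13, 1167 at passage 14 and 1548 at passage 18. Its mean was 10.40 ± 0.20, and no pair of passages differed by more than 1.33-fold. Cdkn2a, which lies beside Cdkn2b on chromosome 4, read 193 at passage 13, 308 at passage 14 and 264 at passage 18. Its level was thus lowest at passage 13, with 1.6-fold more at passage 14 than at 13 and 1.37-fold more at passage 18 than at 13. The single Cdkn2a probe set is of the kind that its maker marks as shared by several transcripts of 1 gene, so p16Ink4a and Arf cannot be told apart.

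Cdkn2c (p18Ink4c) read 300.3 at passage 13, 293 at passage 14 and 458 at passage 18. The cultures of passages 13 and 14 lay within 1.03-fold of each other, and that of passage 18 was 1.53-fold above passage 13 and 1.56-fold above passage 14. Cdkn2d (p19Ink4d, the fourth Ink4 protein) ran the other way, with 63.4, 60.55 and 35.9 at passages 13, 14 and 18. Passage 18 had 0.567 times the level of passage 13, and there the probe set lay 0.15 log2 units above the floor.

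Of the Kip genes, Cdkn1b codes for p27Kip1, an inhibitor of Cdk2 complexes that builds up in resting cells. By the brightest probe set of each gene, it had the smallest spread of the detected members, 8.07 ± 0.12. Its brighter probe set read 280.5, 243 and 282 at passages 13, 14 and 18. The second read 163, 142 and 195, with a larger SD of 0.23. Both were lowest at passage 14. The difference between passages 18 and 13 was 0.01 log2 units by the first probe set, where it turned to -0.03 after median centring and to -5.1e-04 after quantile normalization, and 0.26 by the second, so its order there depends on the probe set and the scaling. Cdkn1c (p57Kip2, an imprinted inhibitor) read 34.7, 26.9 and 23.4 and was above the floor at passage 13 alone. Cdkn1a (p21), the remaining Kip gene and a target of p53, read 2585, 2452 and 3027, the same order as Cdkn2b.

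**Figure D1:**
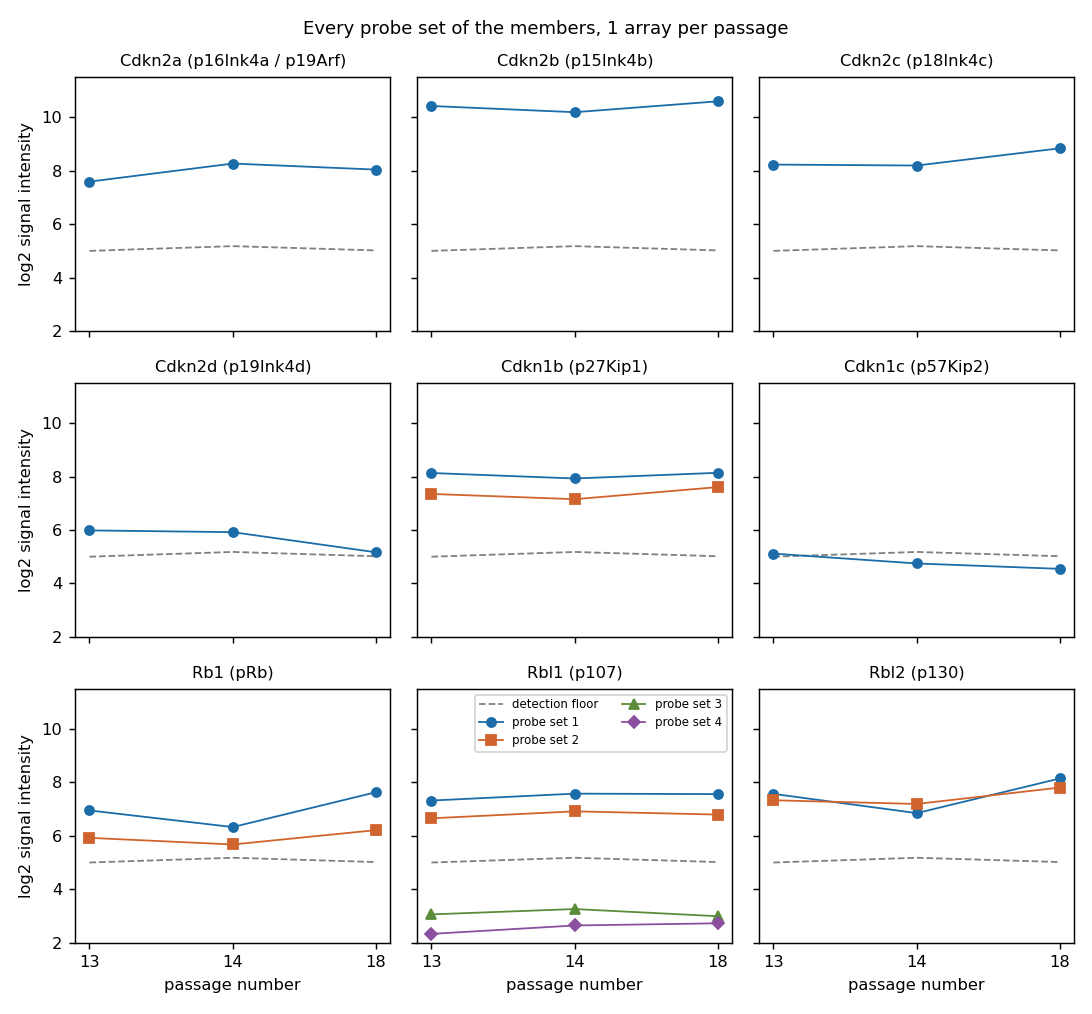
Log2 signal intensity (vertical) of every probe set of the 9 measured genes at passages 13, 14 and 18 (horizontal), 1 array per passage, with the detection floor dashed. Rb1 and Rbl2 dip at passage 14 by both probe sets and peak at passage 18, Cdkn2d comes down to the floor at passage 18, Cdkn1c is above the floor at passage 13 alone, and 2 of 4 Rbl1 probe sets lie under it throughout.

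Of the 3 pocket protein genes, Rb1 and Rbl2 shared 1 order over the passages and Rbl1 had another. Rb1 (pRb) read 124 at passage 13, 80.3 at passage 14 and 198.5 at passage 18 by its brighter probe set, a mean of 6.97 ± 0.65. The second Rb1 probe set read 60.7, 51.1 and 74.2. Both put passage 14 lowest and passage 18 highest, with 2.47-fold more at passage 18 than at 14 by the first and 1.45-fold by the second.

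Rbl2 (p130, the pocket protein of resting cells, which forms the repressive DREAM complex with E2F4 or E2F5) read 189.8, 115 and 284 at passages 13, 14 and 18, a mean of 7.52 ± 0.65. Its second probe set read 161, 146 and 224. The order was that of Rb1, and the step between passages 18 and 14 was 2.46-fold by the first probe set and 1.53-fold by the second. For both genes, then, the probe sets gave 1 order but different sizes.

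Rbl1 (p107, the pocket protein of cycling cells and itself a target of E2F) read 160 at passage 13, 191 at passage 14 and 189 at passage 18 by its brightest probe set. The second read 101, 121 and 111. The lowest value was at passage 13 in both, and passage 14 had 1.20-fold more than passage 13 in both. The other 2 Rbl1 probe sets read between 5.04 and 9.59 and never reached the floor.

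Of the 8 detected members, 5 were lowest at passage 14 and highest at passage 18 (Cdkn2b, Cdkn2c, Cdkn1b, Rb1 and Rbl2), an order that 24.9% of the 9874 detected genes had. That count was 4 under quantile normalization or median centring, where Cdkn1b left it. Cdkn2a and Rbl1 were the 2 members highest at passage 14 and lowest at passage 13 (11.3% of detected genes). For Rbl1, passage 14 lay only 1.01-fold above passage 18. They are also the 2 with an E2F word in a promoter window, which for Cdkn2a is the upstream window alone. The Cdkn2a probe set does not tell the transcripts of the 2 starts apart. This coincidence was not tested, and Rb1, without a window, has no part in it. Cdkn2d was the 1 member lowest at passage 18 (38.3% of detected genes). With 8 members these counts are a description of 3 cultures and were not tested.

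No member differed 2-fold between passages 14 and 13 (0 of 8, against 5.37% of detected genes) or between passages 18 and 13 (0 of 8, against 4.72%). Between passages 18 and 14 the 2 members Rb1 and Rbl2 did (12.3% of detected genes did), and none did when the probe sets of a gene were replaced by their median. Both Rbl2 probe sets are of the kind shared by several transcripts of 1 gene, as that of Cdkn2a is, and leaving out every probe set with a suffix for shared or cross-hybridising probes leaves Rb1 as the 1 member past 2-fold. The median log2 difference over the 8 members was -0.14 for passage 14 minus 13, 0.34 for 18 minus 13 and 0.31 for 18 minus 14. Over all detected genes it was -0.01, -0.01 and 0.002. The comparisons share cultures, so they are not independent of each other. By the brightest probe set of each gene, the median SD of the members was 0.35, against 0.24 for all detected genes. Rb1 and Rbl2 stood at the 91.4th and 91.3rd percentiles of SD, Cdkn1b at the 19.4th. The second probe sets lay closer together, with SDs of 0.27 for Rb1, 0.32 for Rbl2 and 0.23 for Cdkn1b.

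**Figure D2:**
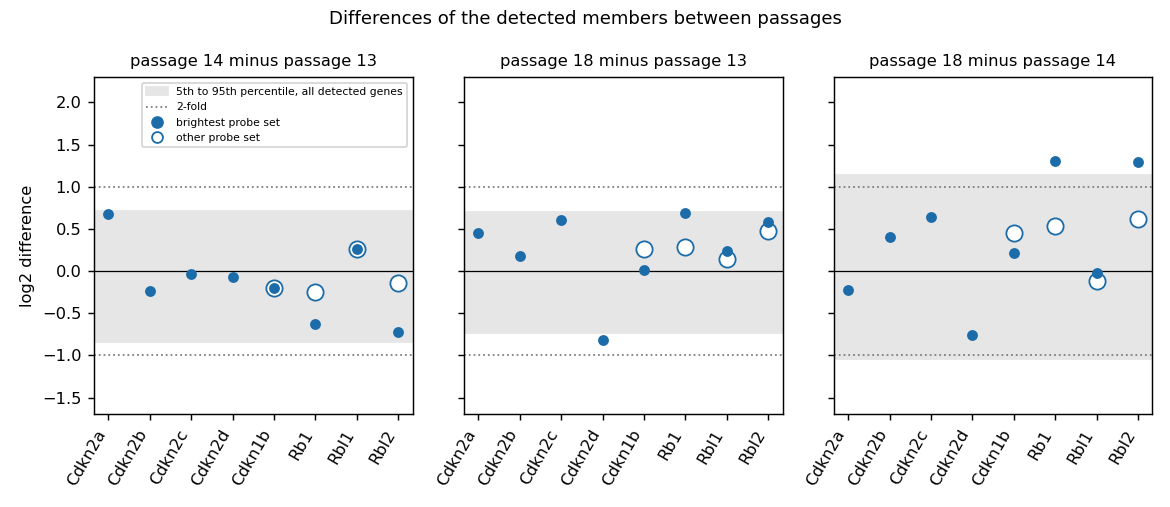
Log2 difference (vertical) between each pair of passages for the detected members (horizontal), with filled points for the brightest probe set and open points for another probe set above the floor. The grey band spans the 5th to 95th percentile of all detected genes and the dotted lines mark 2-fold. Of these points, the filled ones of Rb1 and Rbl2 between passages 18 and 14 are those past 2-fold.

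**Figure D3:**
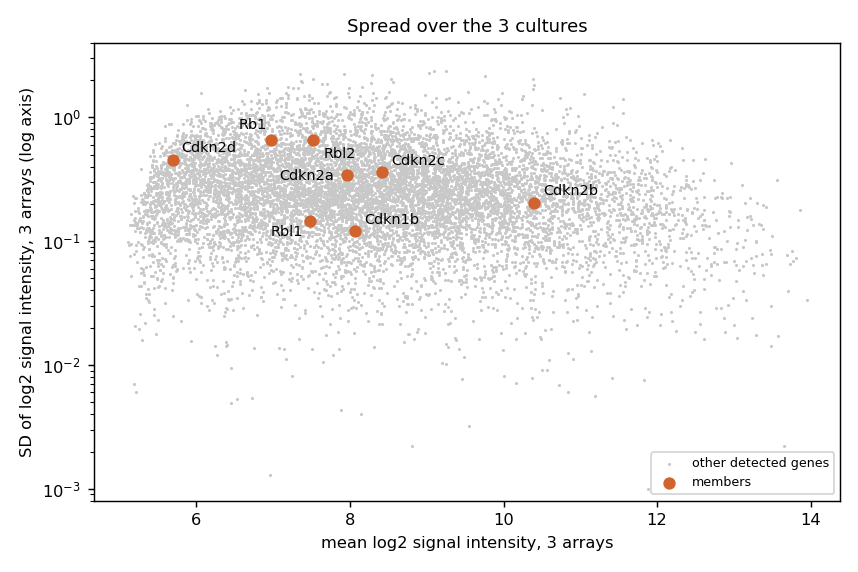
SD of the log2 signal intensity over the 3 arrays (vertical, log axis) against its mean (horizontal) for every detected gene, with the 8 detected members in orange; 4 genes with an SD of 0 are not drawn. Each gene is shown by its brightest probe set, and the members run from 0.12 for Cdkn1b to 0.65 for Rb1 and Rbl2.

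The trend with passage number was tested across all genes whose mean lay above the floor. No member passed it (limma, 0 of 8 tested, with 0% of 10470 genes called), and no member had an unadjusted p under 0.05, where 380 genes did. The largest slopes among the members were 0.19 ± 0.10 log2 units per passage for Rb1, 0.18 ± 0.11 for Rbl2 and -0.17 ± 0.07 for Cdkn2d (limma's standard error, n = 3 arrays), each with an adjusted p of 0.903. Setting passage 14 against the mean of the others, the passage at which Rb1 and Rbl2 were lowest, also called no member, with a smallest adjusted p of 0.513. The fit has 1 residual degree of freedom per gene, so these p-values do not show that the levels were alike.

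The array of passage 18 stood apart in 1 measure of RNA quality, with a Gapdh 3′/5′ signal ratio of 19.4, against 8.59 at passage 13 and 7.10 at passage 14. The same ratio of Actb varied less, at 1.42 for passage 18, against 1.18 and 1.20. All 8 endothelial and 7 of 8 lymphatic markers were detected, and the exception was Prox1, above the floor at passages 13 and 18. All 8 endothelial markers read lower at passage 18 than at 13 (median -0.50 on the log2 scale) and lower than at 14 (median -0.65). The lymphatic markers were mixed: of the 7 detected, 5 were lower and 2 higher at passage 18 than at 13. Against passage 14, 4 were lower and 3 higher at passage 18. Lyve1, a hyaluronan receptor of lymphatic vessels, read 1375, 2929 and 163 at passages 13, 14 and 18. Sox18, Flt4 and the endothelial Egfl7 were each more than 2-fold lower at passage 18 than at either other passage. Foxc2 (783, 267 and 955) and Nr2f2 (1427, 1226 and 1440) were instead highest at passage 18. Pdpn (4615, 1933 and 3715) was lowest at passage 14. Markers of other cells differed too. Summed over 6 fibroblast markers, 2 of them detected, the intensity came to 609, 357 and 2403 in the cultures of passages 13, 14 and 18, and that of 6 mural markers was 6125, 1032 and 7324, with 3 of 6 detected. Neither Pdgfra nor the mural genes Myh11 and Rgs5 lay above the floor on any array. The sums add probe sets of unequal brightness and rest on a few genes that differ in order. Acta2 (1467, 308 and 5289), Pdgfrb (77.9, 66 and 206) and Col1a1 (263, 92.8 and 1228) were lowest at passage 14 and highest at 18, as Rb1 and Rbl2 were. The other detected markers of these lists differed: Tagln (4535, 619 and 1756) was highest at passage 13 and Col3a1 (199, 203 and 776) was lowest there. Col1a2 (101, 15.9 and 318), Dcn (25.4, 10.5 and 45.3) and Cnn1 (20.3, 14.1 and 43) had the order of Acta2. These last genes were above the floor at passage 18 and under it at passage 14. The 6 leukocyte markers summed to 445, 451 and 182, with 3 of 6 detected and Ptprc below the floor. Those detected were Cd68 (127, 244 and 58.15), Cd53 (244, 121 and 64.6) and Lyz2 (50, 63.9 and 38.9), each lowest at passage 18. For 6 keratinocyte markers the sums were 231, 178 and 214, with 2 of 6 detected and Krt14 below the floor. The 2 were Krt10 (133, 81.5 and 116.5) and Krt5 (54.5, 51.3 and 49.9). The part of RNA quality or of such cells in the members' differences was not tested, and in bulk RNA fewer cells of a type and less RNA per cell cannot be told apart.

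The partners of the members were expressed for the most part. Of the G1 cyclins and CDKs, 8 of 8 were detected, of the E2F and DP factors 8 of 10, of the MuvB core and B-Myb 4 of 6, of the p53 regulators and relatives 4 of 6, of the p27 ubiquitination genes 7 of 7 and of the regulators of the Cdkn2a and Cdkn2b locus 9 of 12. The targets of the Ink4 proteins were both present: Cdk4 read 1165, 1593 and 1151 at passages 13, 14 and 18, and Cdk6 read 831, 734 and 1007. Cdk4 was highest and Cdk6 lowest at passage 14. Ccnd1 (cyclin D1) read 5484, 5140 and 3412, and Ccnd2 (cyclin D2) read 4283, 2960 and 5471, so the 2 D cyclins differed in order, and 0 of the 8 genes of that list differed 2-fold between any pair.

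Among the E2F factors, 2 of 8 differed 2-fold between passages 18 and 14, where 12.3% of detected genes did. E2f5, a repressive factor that pairs with p130, read 72.5, 54.2 and 133 at passages 13, 14 and 18, 2.45-fold more at passage 18 than at 14 and in the order of Rbl2. E2f8, an atypical repressor that acts without DP partners, read 258, 445.5 and 162, with its peak at passage 14. E2f1, an activator, read 297, 267 and 162, and E2f3 was nearly even at 552, 572 and 575. E2f4, the other partner of p130, had no array above its floor, and E2f2 was above it at passages 14 and 18. The DREAM subunits Lin9, Lin37, Lin54 and Rbbp4 were detected and stayed within 2-fold, while Lin52 and Mybl2 never exceeded the floor.

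Of the genes that act on p27, Skp2, the subunit of the ubiquitin ligase that recognises p27 once phosphorylated, read 351 at passage 13, 704 at passage 14 and 330 at passage 18. It was the 1 gene of 7 past 2-fold, 2.0-fold higher at passage 14 than at 13 (2.13% of detected genes were higher by as much) and 0.469 times as high at passage 18 as at 14 (5.57% were lower by as much). Skp2 was highest at passage 14, where the RNA of Cdkn1b was lowest by a small step. The ligase acts on the p27 protein, which these arrays do not measure, and a link between the levels of Skp2 and Cdkn1b RNA was not tested. The Skp2 partner Cks1b read 3687, 4750 and 4295 and the scaffold Cul1 read 899.6, 929 and 1022.

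Of the regulators of the Cdkn2a and Cdkn2b locus, the Polycomb gene Bmi1, a known repressor of Cdkn2a, read 675.5, 1150 and 714 at passages 13, 14 and 18. It was highest at passage 14, as Cdkn2a was. The transcription factor gene Ets2, known as an activator of p16Ink4a, read 806, 1537 and 534. It was the 1 of the 9 detected genes past 2-fold, between passages 18 and 14, a share near the 12.3% of all detected genes. Ets1 (1118, 1019 and 925) and Dmtf1 (217, 158.5 and 210), also of that list, were instead highest at passage 13. Likeness of any of these regulators to Cdkn2a in order was not tested. Ezh2 (521.5, 588 and 606), Suz12 (842, 1104 and 866) and Eed (1455, 1470 and 1628), which make up a second Polycomb complex, stayed within 2-fold. Cbx7 and Tbx2 never exceeded the floor. Tbx3 (10.5, 37.6 and 54.6) was above it at passages 14 and 18 but not at 13, and so was not counted as detected.

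On the p53 side, Mdm2, the ligase that degrades p53, read 5099, 3947 and 4395, and its relative Mdm4 read 305, 486 and 269, each at passages 13, 14 and 18. Mdm2 was lowest and Mdm4 highest at passage 14. The p53 relatives Trp63 and Trp73 never exceeded the floor. All 9 p53 targets measured were detected. Their median log2 difference was -0.18 for passage 14 minus 13 and 0.30 for passage 18 minus 14. Of the 9, Perp and Fas were at least 2-fold lower at passage 14 than at 13 (5.37% of detected genes differed 2-fold). Both were also at least 2-fold higher at passage 18 than at 14 (12.3% of detected genes differed 2-fold). The largest log2 differences were -2.24 for Perp in the first comparison and 2.70 for Fas in the second. No other target differed 2-fold in either comparison. The endogenous H2-K1, the class I gene whose promoter drives the T antigen in these mice, read 4419, 3768 and 4457 by a probe set whose suffix marks probes that can bind other transcripts, so other class I genes may add to it. It was lowest at passage 14 by a small step, and the T antigen itself was not analysed here.

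Proliferation genes had the largest median differences of the 8 lists of partners and reference genes. All 10 measured ones were higher at passage 14 than at 13, 6 of them at least 2-fold (2.13% of detected genes were). In turn 9 of the 10 had less signal at passage 18 than at 14, 6 of them at least 2-fold (5.57% of detected genes). Ccna2 read 723.5, 2255 and 519 at passages 13, 14 and 18, and Mki67, a marker of cycling cells, read 219, 652 and 158. Mcm6 was the exception among the 10, at 2989, 3029 and 3179. The peak of the others at passage 14 coincides with the lowest values of Rb1, Rbl2, Cdkn2b, Cdkn2c and Cdkn1b. It also coincides with the highest values of Rbl1 and Cdkn2a. Some of these steps were small: Cdkn2c at passage 14 lay within 1.03-fold of passage 13, and Rbl1 within 1.01-fold of passage 18. Cdkn2d (63.4, 60.55 and 35.9) had neither extreme at passage 14. A link between the proliferation genes and the members was not tested.

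**Figure D4:**
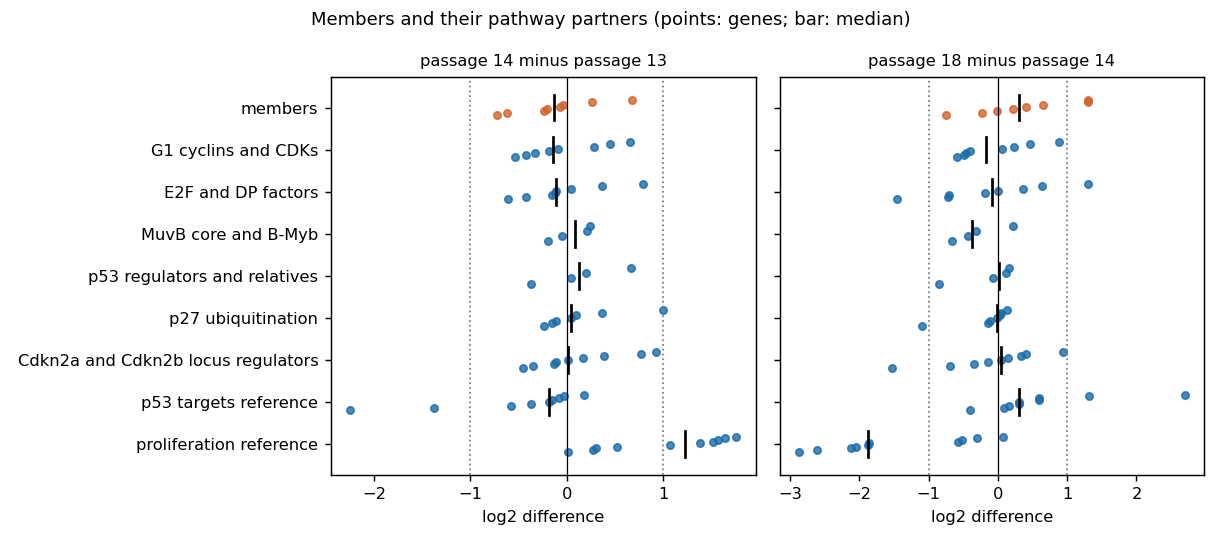
Log2 differences (horizontal) of single detected genes (points) and their medians (black bars) for the members and 8 lists of partners and reference genes (vertical), between passages 14 and 13 on the left and 18 and 14 on the right, with 2-fold dotted. The proliferation genes lie to the right of 0 on the left and mostly to its left on the right, with medians of 1.23 and -1.87, while the members have medians of -0.14 and 0.31.

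For the 3 detected members with the largest SD, the detected genes nearest in pattern were found by the Euclidean distance between mean-centred log2 levels over the 3 arrays. For Rb1 they were Phldb2, Serf1 and Arhgef25, at distances of 0.021, 0.022 and 0.032. For Rbl2 they were Tmem19, Pkia and Adgra3, at 0.020, 0.022 and 0.029, and for Cdkn2d they were Ak4, Mrps11 and Pcdh7, at 0.0080, 0.014 and 0.018. With 3 arrays such likeness is common: 149, 159 and 201 genes lay within 0.2 of Rb1, Rbl2 and Cdkn2d.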

How the data were processed

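The authors deposited signal intensities, 1 value for a probe set on each array, not log-transformed. MAS5 is named in the submitters' processing notes without role or version, and further upstream steps were not given in the sources used here. Median intensities of 25.7, 26.0 and 26.3 at passages 13, 14 and 18 show a common scale, so the values were not normalized again. Of 45101 probe sets, 34958 had 1 gene in the platform annotation, 932 several and 9211 none here; the symbols of 34754 were updated through Entrez identifiers to RefSeq. No build is named for the array values. Intensities were taken to log2, and each gene was represented by its brightest probe set. The detection floor was the 95th percentile of 47 genes of other tissues, of which Prm1 and Camk2a (2) were themselves detected. For the passage trend, limma 3.58.1 (lmFit, eBayes with trend, R 4.3.3) was run on genes whose mean exceeded the mean floor, with Benjamini-Hochberg adjustment over all of them and calls at an adjusted p under 0.05. It was tested on simulated data whose slopes were far larger than those of the members, so that test does not bear on slopes of their size. All members with every probe set were named; in the partner lists any detected gene could be, with H2-K1, Cdkn1a and the 3 genes nearest in pattern to each of the 3 members of largest SD. The members and lists were chosen with earlier results of these data known. With 3 arrays, their number limits the precision. Alternatives changed the floor, probe set choice, normalization, offset, filter, contrast and arrays used.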

Additional observations from a re-analysis of the deposited data

How the results depend on the processing

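Over the alternatives run, the number of detected members lay between 6 and 8 and that of member probe sets above the floor between 9 and 12. The lower ends came from dropping probe sets with a suffix for shared or cross-hybridising probes, which by construction removes Cdkn2a and Rbl2. Without each culture in turn the counts stayed at 8 and 12. That was fixed in advance, because leaving out an array cannot lower them. Nor could they rise, since Cdkn1c was above the floor at passage 13 alone and 2 Rbl1 probe sets on no array. The count of members past 2-fold between passages 18 and 14 was 2 in the report, 0 with the median of probe sets and 1 after that drop. No member was called in the passage trend under any of 8 alternatives. The count of members lowest at passage 14 and highest at passage 18, an alternative analysis chosen after seeing the data, lay between 4 and 5. The median difference of the members ranged from -0.20 to -0.12 for passage 14 minus 13, from 0.21 to 0.45 for 18 minus 13 and from 0.29 to 0.41 for 18 minus 14. Of 186 recomputed differences of single members, 183 moved by less than that gene's SD and 3 by more, all 3 with the median of probe sets (Cdkn1b and Rbl1), and 2 changed sign, both of Cdkn1b between passages 18 and 13. Many of the 183 could not move. A change of floor leaves every difference as it was, as does the median for a gene with 1 probe set. Dropping probe sets by suffix left the brightest probe set of each remaining member in place. The count of 183 is therefore no measure of robustness. No paired analysis was possible because the 3 cultures form 1 group. Passage and culture cannot be told apart, values under the floor, as for Cdkn1c at passages 14 and 18, have only an upper limit, and Cdkn2d at passage 18 lay just above it.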
